A study of Mus musculus with 2 samples.

Results

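These junctions are splice junctions absent from the reference annotation of the deposited file in which 1 end, either the donor (the 5' splice site) or the acceptor (the 3' splice site), is known and the other is new. They were selected by 4 criteria: the junction was marked as unannotated, it had at least 10 reads in each of 2 replicates, its irreproducibility score was at most 0.1, and exactly 1 of its ends was also an end of an annotated junction on the same chromosome and strand. This gave 8547 junctions of 17792 unannotated junctions past the same limits and of 1226020 junctions in all. The other unannotated junctions past the limits joined 2 annotated sites in a new combination (2795) or had both ends new (6450). A new acceptor was joined to a known donor in 4289 junctions and a new donor to a known acceptor in 4258. Reads and score chose these junctions, so their read numbers are given as descriptions without tests. Tissue of the central nervous system was taken at embryonic day 18 from C57BL/6J mice, with male and female littermates pooled. Libraries were stranded and paired-end, made from polyadenylated RNA of more than 200 nt after removal of ribosomal RNA, and they form a single group of 2 libraries with no treatment or mutant. The labels number the libraries as biological replicates 1 and 2 but do not tie the replicate numbers of the junction file, used below, to them. With 1 group there is no comparison between conditions, and differences between replicates may be biological or technical.

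The spliceosome removes introns that mostly begin with GT and end with AG. Where a second usable donor or acceptor lies near an annotated one, the exon is lengthened or shortened by the bases between them, and tandem acceptors of the form NAGNAG are the best known case. A new acceptor and a new donor that face each other inside an intron bound an exon that the annotation lacks. Developing neurons include many short exons, called microexons, that add a few amino acids to synaptic and cytoskeletal proteins, and the choice is set by RNA-binding proteins such as the Rbfox, Ptbp, Nova and Srrm4 families.

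The sequences below show the bases on which the new sites act. They were read from transcripts of the later GENCODE M21 annotation (GRCm38 build), which could be done where M21 had an intron of the same length as the new junction and an intron of the same length as the annotated junction it competes with, both sharing the known end. No base was read by moving a position between builds. In the first set, capitals mark the bases between the annotated and the new site, which only the longer form holds. Lower case gives the spliced exon bases on either side, and the splice sites lie within coding sequence. All sequences are written 5' to 3' on the strand of the gene. The first 5 have tandem acceptors 3 nt apart, the Celsr3 acceptors lie 6 nt apart, and the Ddx17, Srsf7 and Adgrl2 sequences hold tandem donors.
Fxyd6 (chr9:45390634-45390636, + strand): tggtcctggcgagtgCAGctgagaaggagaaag
Celf3 (chr3:94485273-94485275, + strand): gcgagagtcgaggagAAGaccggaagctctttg
Ptbp2 (chr3:119720458-119720460, - strand): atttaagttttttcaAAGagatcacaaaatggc
Rpl22l1 (chr3:28806500-28806502, + strand): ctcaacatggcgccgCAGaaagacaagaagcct
Ncam1 (chr9:49520213-49520215, - strand): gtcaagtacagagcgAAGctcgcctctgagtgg
Celsr3 (chr9:108832688-108832693, + strand): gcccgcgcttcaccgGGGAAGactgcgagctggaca
Ddx17 (chr15:79531672-79531677, - strand): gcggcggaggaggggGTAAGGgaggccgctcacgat
Srsf7 (chr17:80204122-80204130, - strand): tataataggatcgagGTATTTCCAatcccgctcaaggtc
Adgrl2 (chr3:148822955-148822987, - strand): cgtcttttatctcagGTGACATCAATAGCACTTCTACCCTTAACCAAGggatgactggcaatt

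In Fxyd6, Ptbp2, Rpl22l1, Ddx17, Srsf7 and Adgrl2 the new site is the inner one, and the new junction skips the capitals. In Celf3, Ncam1 and Celsr3 it is the outer one, and the new junction keeps them. The acceptor stretches end in AG and the donor stretches begin with GT, so that each holds the last or first bases of the shorter form's intron. Sequence could be read in this way for 512 new acceptors and 278 new donors within 100 nt of the annotated site. Of these, 511 acceptor stretches (99.8%) ended in AG, and 275 donor stretches (98.9%) began with GT and 2 with GC. Annotated introns mostly hold these bases, so the shares cannot speak for new sites without a match in M21.

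The second set shows unannotated exons, bounded by a new acceptor and a new donor, that M21 holds with the same exon length and flanking intron lengths in a coding transcript. Capitals mark the exon, lower case the neighbouring exons, and the lengths are all divisible by 3. The first 5 are named by the selection rule, while Robo2, Clasp1 and Ryr2 were added after their values were seen.
Ptprs (chr17:56427791-56427817, - strand): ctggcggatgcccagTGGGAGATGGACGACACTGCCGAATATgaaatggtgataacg
Ppp6r3 (chr19:3459747-3459764, - strand): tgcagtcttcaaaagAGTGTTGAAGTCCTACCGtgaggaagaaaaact
Tmem184b (chr15:79363658-79363678, - strand): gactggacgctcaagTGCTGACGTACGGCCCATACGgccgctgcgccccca
Ptprf (chr4:118252076-118252093, - strand): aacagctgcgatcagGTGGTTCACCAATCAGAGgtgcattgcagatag
Agap1 (chr1:89610284-89610295, + strand): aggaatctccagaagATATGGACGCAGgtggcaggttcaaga
Robo2 (chr16:74008775-74008786, - strand): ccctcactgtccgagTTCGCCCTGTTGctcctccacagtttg
Clasp1 (chr1:118512705-118512728, + strand): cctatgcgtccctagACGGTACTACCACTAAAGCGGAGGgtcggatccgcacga
Ryr2 (chr13:11634307-11634330, - strand): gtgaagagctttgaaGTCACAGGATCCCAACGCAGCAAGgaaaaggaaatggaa

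The file held 48204482 junction reads in replicate 1 and 69266527 in replicate 2, and the new junctions took 1.05% and 1.01% of them. Their counts ran from 10 to 13776 reads in replicate 1 (median 22) and from 10 to 21068 in replicate 2 (median 31). At the read limit, 714 of them had 10 reads in the weaker replicate, and 845 unannotated junctions with 1 new end fell just outside with 9; the highest score among those selected was 0.04. The known neural genes were abundant in both libraries, with Tubb3 at 2731 and 2430 TPM and Dcx at 200.4 and 188.7 TPM in replicates 1 and 2. Some genes of other tissues and cell types differed between the libraries: Ckm stood at 0.23 and 94.4 TPM, Krt6a at 32.9 and 0.03 TPM, and Ttr at 426.8 and 1389 TPM. Others were close, such as the globin gene Hbb-bs at 991.1 and 890.9 TPM, the endothelial gene Cldn5 at 107.7 and 103.1 TPM and the microglial gene C1qb at 24.7 and 23.95 TPM. Of 18 genes of muscle, blood, bone and skin with an annotated junction past the limits, 2 held a new junction, the globin genes Hbb-bs and Hbb-bt, against 30.6% of all 13997 genes with such a junction. The part of such tissue in the other junctions was not tested.

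New sites ranged from traces to the main site of their exon. Use of a new site was defined per replicate as the reads of the new junction over the reads of all junctions that share its known end. In a bulk sample an intermediate use in every cell and full use in some cells cannot be told apart, nor can fewer cells of a type and less RNA per cell. The median use was 9.02% in replicate 1 and 8.585% in replicate 2 (mean 8.80 ± 0.31%, SD, n = 2). By the mean of both replicates, 2973 junctions (34.8%) had a use under 5%, while 904 (10.6%) took more than 50% of the reads at their known end and 129 took more than 90%. Among the 7933 junctions with at least 50 reads at the known end in each replicate, 86.2% differed by less than 5 percentage points between replicates, and 34 differed by more than 20 points. A low use leaves little room for a larger difference, and the selection required reads in both replicates and a low score. The share is therefore no test of agreement between replicates.

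**Figure D1:**
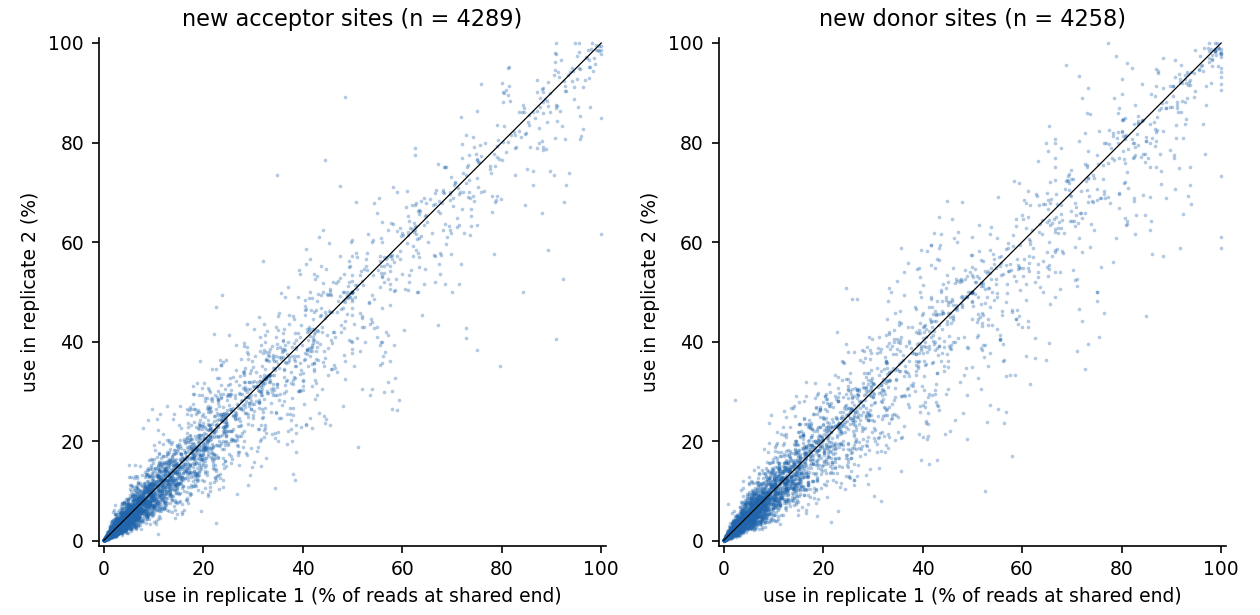
Use of the new splice site in replicate 1 (x axis) and replicate 2 (y axis), in percent of the reads at the known end, with 1 point per junction. Left, 4289 new acceptors; right, 4258 new donors; the line marks equal use. Most points lie under 25% and near the line, and both panels hold points near 100% in both replicates.

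The junction with the most reads was a new acceptor in Uchl1, the neuronal ubiquitin hydrolase, whose first exonic base was position 67068171 of mm9 chromosome 5, 12 nt before an annotated acceptor. It had 13776 and 21068 reads in replicates 1 and 2, against 1564 and 3344 for the strongest annotated junction of the same donor, which ended at another acceptor, nearer to the donor. Its use of 89.6% and 86.2% (mean 87.9 ± 2.44%, SD, n = 2) was above that of this annotated junction in both replicates. This junction carried C=0, the less frequent value of a second flag whose meaning the file does not state. In Prpf19, a ubiquitin ligase of the spliceosome, a new acceptor 57 nt inside the exon had 3663 and 4467 reads, against 650 and 985 for the annotated one. In Mlf2 a new acceptor 21 nt inside the exon had 2602 and 3618 reads, against 155 and 211. In Prpf19 and Mlf2, as in Uchl1, the annotated junction took the minority of reads in both replicates.

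New donors reached the same levels. Cspg5, which encodes the brain proteoglycan neuroglycan C, had 2647 and 3744 reads at a donor 81 nt inside the exon, against 857 and 1197 at the annotated donor, a use of 75.2% and 75.6%. In Ddx17, a DEAD-box RNA helicase, the donor 6 nt inside the exon (the GTAAGG shown above) had 2825 and 4567 reads, against 1591 and 2573, a use of 63.6% and 63.7%. Add2, which encodes the cytoskeletal protein beta-adducin, was joined from a donor outside the annotated gene to a known acceptor 53765 nt away. That junction had 1554 and 1839 reads, against 1 and 0 for the best annotated junction at the same acceptor. Atp2b1, a plasma membrane calcium pump, likewise had a donor outside the annotated gene with 517 and 795 reads, against 48 and 66, a use of 90.4% and 91.3%. For Add2 and Atp2b1 the annotated junction at that acceptor was the minor one in both replicates.

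At the upper end of use were junctions whose annotated competitor was nearly unread. Celsr3, a cadherin of planar polarity and axon tracts, had 449 and 567 reads at an acceptor 6 nt before the annotated one, against 0 and 3 reads. Rpl22l1, a paralog of a ribosomal protein, had 815 and 1364 reads at an acceptor 3 nt inside the exon, against 6 and 18. In the other genes the read numbers are set against the strongest annotated junction at the same known end, which did not always lead to the annotated site nearest to the new one. They were 840 and 1153, against 1 and 1, for a new acceptor of Rnf4, and 176 and 213, against 1 and 1, for one of Rwdd4a. Among donors, Capn2 (291 and 387, against 1 and 5), Qsox1 (140 and 161, against 0 and 1), Uggt2 (140 and 266, against 1 and 2), Nbea (126 and 153, against 1 and 0) and Zfp236 (78 and 105, against 1 and 0) showed the same pattern. New acceptors had 55 and 84 reads in Plekhg4, against 1 and 0, and 213 and 324 in Rab10os, against 1 and 4. The pseudogene transcript Pisd-ps2 had 5352 and 7492, against 120 and 178. The annotated junction was at 18 reads or fewer in each replicate in all of these genes but Pisd-ps2. The Rnf4, Rwdd4a and Capn2 junctions carried C=0 like that of Uchl1.

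Acceptors and donors differed in where the new site lay. Of the new acceptors, 2399 (55.9%) lay within 100 nt of an annotated acceptor, and of the new donors 1411 (33.1%) lay within 100 nt of an annotated donor; the median distances were 60 and 306.5 nt. New acceptors shortened the exon in most of these near cases, with 33.5% lengthening it, whereas 52.4% of near donors lengthened it. A single distance stood out for acceptors. A total of 617 new acceptors in 551 genes lay 3 nt from the annotated acceptor, which is 14.4% of all new acceptors, 455 of them 3 nt inside the exon and 162 of them 3 nt before it. The next most frequent distances were 4 nt (226), 5 nt (129) and 6 nt (59) inside the exon. Donors were most frequent 4 nt outside the exon (81), followed equally by 4 nt inside it (46) and 1 nt outside it (46).

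**Figure D2:**
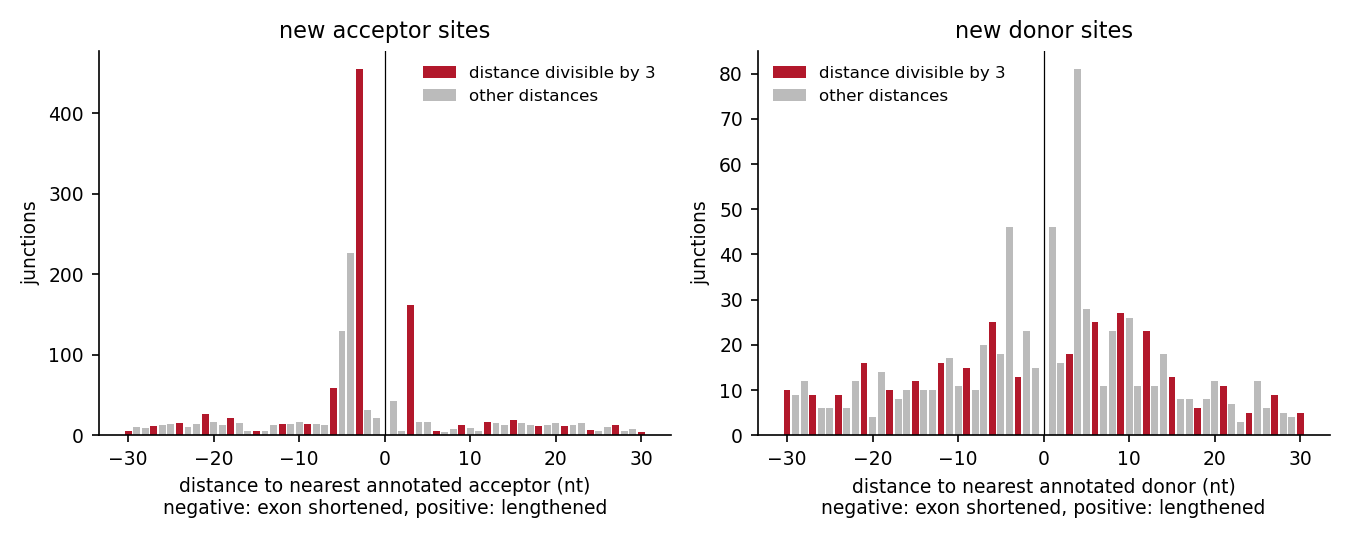
Number of junctions (y axis) by the distance in nt of the new site to the nearest annotated site of its kind (x axis, from -30 to 30), for new acceptors on the left and new donors on the right; red bars are distances divisible by 3. The acceptor bars at -3 (455) and 3 (162) and the donor bar at 4 (81) stand above their neighbours, and the y axes have different scales.

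Distances divisible by 3, which leave the reading frame downstream unchanged when the bases are coding, made up 45.6% of near acceptors and 31.75% of near donors. Of the 1094 near acceptors at such distances, 617 lay at 3 nt, and the share without this distance was not computed. Neither share was set against an expected level. Junctions at distances divisible by 3 had the higher median use, to which the 3-nt acceptors contribute. The median use was 10.5% for near acceptors at distances divisible by 3, against 4.71% at other distances, and 8.54% against 5.99% for near donors. For acceptors it was 12.3% at 3 nt inside the exon, against 4.28% at 4 nt inside it, and 19.6% at 3 nt before the exon. Other multiples of 3 varied, with 4.89% at 6 nt inside the exon, 11.8% at 21 nt inside it and 3.53% at 15 nt before it. More than 50% use was reached by 44 of the 455 acceptors 3 nt inside the exon and by 29 of the 162 acceptors 3 nt before it. In the M21 transcripts, which do not cover the other junctions, the difference was divisible by 3 for 238 of 371 acceptor pairs in coding sequence (64.15%), against 51 of 141 elsewhere (36.2%). For donors the figures were 86 of 141 in coding sequence (61.0%) and 35 of 137 elsewhere (25.55%). A pair counted as coding only where both forms lay within the coding sequence of a protein-coding transcript. Such sequence is annotated by reading frame, so the contrast was partly set by this rule.

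The 3-nt acceptors with the most reads were those of Fxyd6, Carmil3 and Celf3. Fxyd6, a regulator of the sodium pump, had 2746 and 3897 reads at the inner acceptor, against 1674 and 2676 at the annotated one, a use of 62.1% and 59.3%. Carmil3, a relative of regulators of actin capping protein, had 1587 and 2496 reads at the outer acceptor, against 779 and 1182, a use of 66.65% and 67.6%. Celf3, an RNA-binding splicing factor, had 1584 and 1929 reads at the outer acceptor, against 966 and 1121, a use of 59.7% and 61.2%. In all 3 the new site was the more used one in both replicates. Ptbp2, the neural polypyrimidine tract-binding protein, divided its reads nearly evenly, with 637 and 1048 at the inner acceptor and 593 and 888 at the annotated one. Ncam1, the neural cell adhesion molecule, used its outer acceptor less, with 383 and 390 reads against 1048 and 1208. In 3-nt pairs with M21 sequence the bases between the acceptors were CAG, AAG or TAG in most cases. The inner acceptor had a median use of 27.2% over 92 pairs with CAG, 16.8% over 12 pairs with AAG and 44.2% over 5 pairs with TAG. The outer one had 45.8% over 37 pairs with CAG, 45.5% over 8 with AAG and 51.0% over 6 with TAG. Junctions with a match in M21 were more often those of high use. Over all 3-nt acceptors the median use was 12.3% for 455 inner and 19.6% for 162 outer sites.

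Donors 4 nt from the annotated donor shift the reading frame where the bases are coding. Their median use was 5.35% outside the exon and 7.86% inside it, against 6.51% for all donors within 100 nt of an annotated donor. Clasrp, a splicing factor of the SR-like type, had 260 and 397 reads at a donor 4 nt outside the exon, against 115 and 150, a use of 69.3% and 71.9%. Prkcsh, the beta subunit of glucosidase II, had 221 and 266 reads, against 940 and 1046, a use of 18.9% and 20.15%. Carmil3 had 187 and 302 reads at a donor 4 nt inside the exon, with the flag value C=0, against 1318 and 2294. Over 50% use was reached by 4 of the 81 outer and 3 of the 46 inner donors at this distance, of which Clasrp is the one with the most reads. In the 14 pairs at this distance with M21 sequence, the 4 bases began with GT each time.

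A small group of junctions carried the flag C=0. They were 298 of the 8547. The other value, C=1, was carried by 96.5% of the junctions with 1 new end, by 52.6% of those with both ends new and by 99.7% of annotated junctions past the same limits. Their new site lay at a median of 3 nt from an annotated site, and 41.3% of them lay at 1 nt, against 2 of the 8249 junctions with C=1. Same-length introns in M21 were found for 5.56% of those with C=0, against 30.1% of those with C=1. Besides Uchl1 they include the Nrxn2 acceptor 9 nt before the annotated one in this presynaptic adhesion gene, with 390 and 476 reads against 216 and 274. They also include a Celf4 acceptor 3 nt inside the exon, with 1404 and 1841 reads against 3144 and 3919. The noncoding RNA gene Gas5 had 200 and 321 reads at an acceptor 1 nt inside an exon, against 1429 and 2842 for the strongest annotated junction of its donor.

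A new acceptor and a new donor of the same gene bounded 812 unannotated exons of 3 to 500 nt in 662 genes, and 1549 of the 8547 junctions (18.1%) took part in one. Of these exons, 689 overlapped no annotated exon. Short paired-end reads do not show that both junctions belong to the same RNA. In 71.7% of the exons the upstream and the downstream junction had read numbers within 2-fold of each other. How often unrelated junctions of a gene do so was not tested. The median length was 101 nt, and 42.0% of the lengths were divisible by 3. That share was 63.8% for the 58 exons of 3 to 27 nt, 47.1% for 344 exons of 28 to 100 nt, 33.7% for 309 exons of 101 to 200 nt and 37.6% for 101 longer ones. Inclusion was the mean count of the exon's junctions over that mean plus the reads of the junction that skips it. Over the 708 exons with an annotated skipping junction its median was 16.45% in replicate 1 and 15.4% in replicate 2 (15.9 ± 0.73%, SD, n = 2). The median was 32.7% for exons of 3 to 27 nt, against 16.1, 14.5 and 11.2% for the 3 longer classes. It was 21.7% for lengths divisible by 3, against 13.65% for other lengths.

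**Figure D3:**
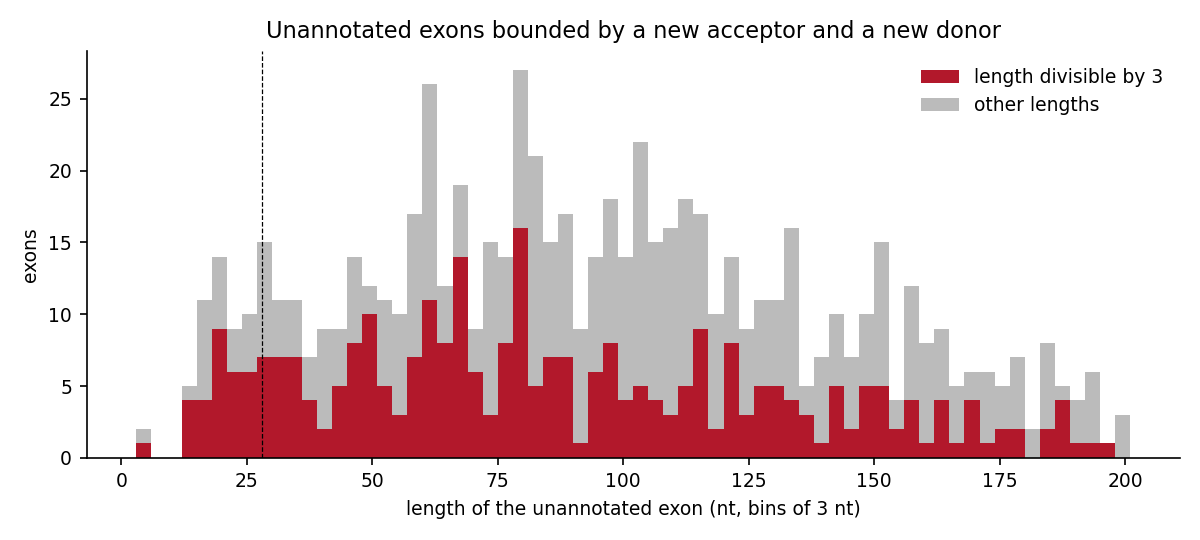
Number of unannotated exons (y axis) by length in nt (x axis, up to 200 nt, bins of 3 nt), with lengths divisible by 3 in red and other lengths in grey. Left of the dashed line, which marks 28 nt, red makes up 37 of 58 exons.

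The exon with the most reads was a 27-nt exon of Ptprs, a receptor tyrosine phosphatase of axons and synapses, at positions 56567214 to 56567240 of mm9 chromosome 17. Its upstream junction had 2139 and 2730 reads and its downstream junction 2052 and 2590, against 284 and 388 reads that skip it. Inclusion was 88.1% and 87.3%. The related genes Ptprf, with an 18-nt exon, and Ptpra, with a 27-nt exon, stood at 65.9% and 68.3% and at 24.5% and 20.7%. Ptprs and Ptprf belong to the LAR family of phosphatases, which bind ligands at the cell surface. Their exons were more included than that of Ptpra. Other phosphatase genes were not compared, and whether inclusion goes with the family was not tested. Ppp6r3, a regulatory subunit of protein phosphatase 6, included an 18-nt exon at 62.2% and 59.65%, and Tmem184b a 21-nt exon at 73.0% and 66.0%. Agap1, a GTPase-activating protein of endosomal traffic, included a 12-nt exon at 82.7% and 85.15%. For the collagen gene Col4a1 a 17-nt exon was included at 12.8% and 14.4%. Hnrnpc had a 26-nt exon at 43.5% and 50.2%, but its downstream junction (845 and 1525 reads) had several times the reads of the upstream one (184 and 435).

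Of the exons of 3 to 27 nt, 22 of the 56 with an annotated skipping junction had an inclusion above 50%. Among the genes added after their values were seen, Robo2, a receptor for Slit guidance cues, had a 12-nt exon at 47.7% and 38.0%, and Clasp1, a microtubule plus-end protein, a 24-nt exon at 70.5% and 69.9%. The calcium release channel gene Ryr2 had a 24-nt exon at 83.7% and 83.15%, and the ankyrin gene Ank3 a 27-nt exon at 65.15% and 69.1%. Srrm4, itself a regulator of microexons, had a 16-nt exon at 25.2% and 20.3%, on 10 and 13 upstream and 17 and 16 downstream reads. The exon of Robo2 differed more between replicates, while those of Clasp1 and Ryr2 differed by less than 1 point.

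**Figure D4:**
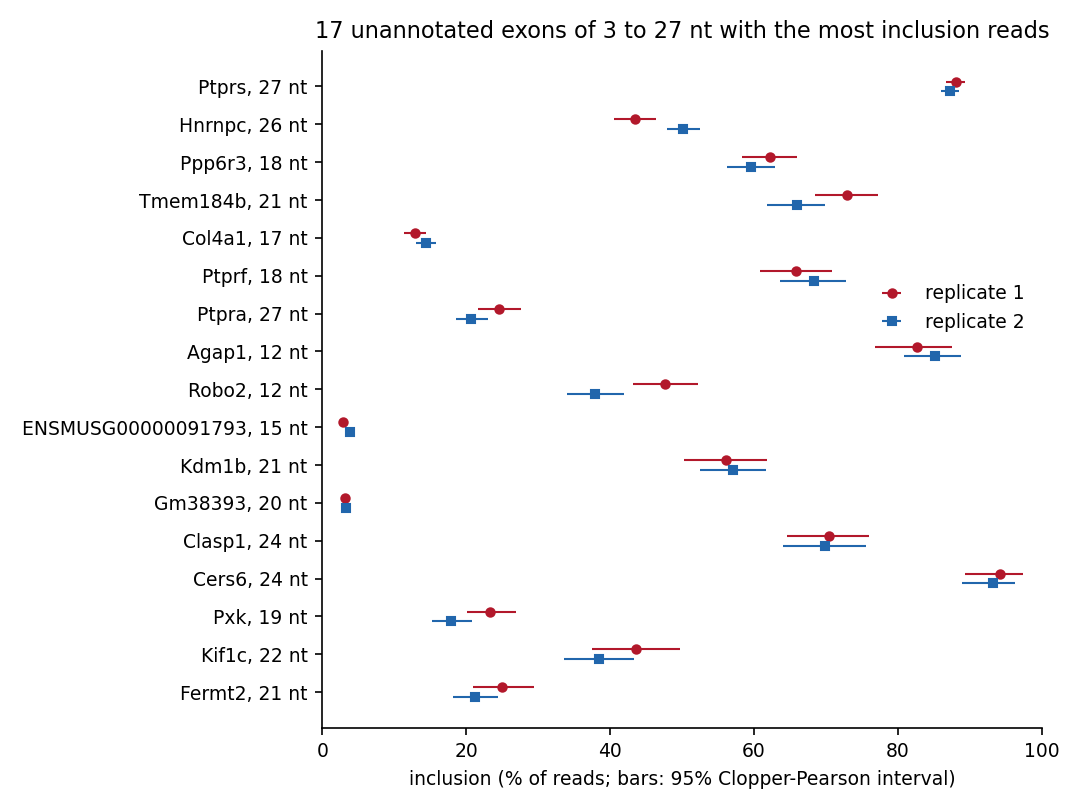
Inclusion in percent (x axis) of the 17 unannotated exons of 3 to 27 nt with an annotated skipping junction and the most reads, for replicate 1 (red circles) and replicate 2 (blue squares), with 95% Clopper-Pearson intervals from the rounded mean junction count. Ptprs, Agap1 and Cers6 lie above 80% in both replicates, and ENSMUSG00000091793 and Gm38393 lie under 4%.

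Some of the longer exons with the most reads reached similar levels, although the longer classes had the lower median inclusion given above. Myl6, a myosin light chain, included a 45-nt exon at 79.7% and 77.6%, with 1165 and 2256 upstream, 912 and 1842 downstream and 264 and 591 skipping reads. Ctbp1, a transcriptional co-repressor, included a 193-nt exon at 69.3% and 72.7%, with 424 and 467 skipping reads. Hnrnpa2b1, which encodes an abundant nuclear RNA-binding protein, had a 136-nt exon, which overlaps an annotated one, whose downstream junction (1808 and 2799 reads) exceeded the upstream one (145 and 181), so that its inclusion of 96.6% and 95.6% rests mostly on the downstream junction. The latrophilin gene Adgrl2 included a 39-nt exon at 25.9% and 25.6% and also used the donor 33 nt inside another exon shown above, at 29.5% and 29.2%.

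Relative to the annotated exons of Ensembl release 65, 37.6% of the new sites lay inside an exon of the host strand, 52.9% in an intron of the host gene, 2.67% in another gene on the same strand and 6.75% outside genes. New acceptors lay in exons more often (47.5%) than new donors (27.7%), and 8.55% of new donors lay outside genes, against 4.97% of new acceptors. The 364 donors outside genes had a median use of 18.8%, and 74 of them, among them those of Add2 and Atp2b1, were above 50%. The authors' contigs, regions of continuous signal, covered the exonic base of 94.6% of the new sites, and 17.5% were exon ends of their de novo exon models. Both come from the same reads and are no separate support.

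Of the 8261 new junctions whose host gene is in M21, 2419 (29.3%) had an intron of exactly the same length there. An intron 1 nt longer was found for 2.08%, and the annotated competitors matched in 98.9%. Whether M21 drew on these libraries was not examined. The share with a match was 58.2% among junctions above 50% use and 16.7% among those under 5%. Read number ran with use, and within the junctions of at least 200 reads the share was 71.7% (266 of 371) above 50% use, 49.1% between 5 and 50% and 22.45% (11 of 49) under 5%. The exons had the same order, with 51.0% of those with an inclusion above 50% found in M21 with the same exon and intron lengths, against 22.8% of those under 10%. Of the 272 exons found there, 107 lay in coding sequence of a protein-coding transcript and 95 of these 107 (88.8%) had a length divisible by 3, against 50 of the other 165 (30.3%). For each exon 1 transcript was kept, a coding one where there was any and otherwise the first by identifier. For 75 of the 272 the kept transcript is one that M21 marks for nonsense-mediated decay. Other transcripts with the same exon were not counted. All 22 coding exons of 3 to 27 nt had a length divisible by 3. Coding meant that the exon and the adjoining ends of its neighbours lay within the coding sequence of a protein-coding M21 transcript. Coding sequence is itself annotated by reading frame, so these contrasts were partly set by how the classes were defined.

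**Figure D5:**
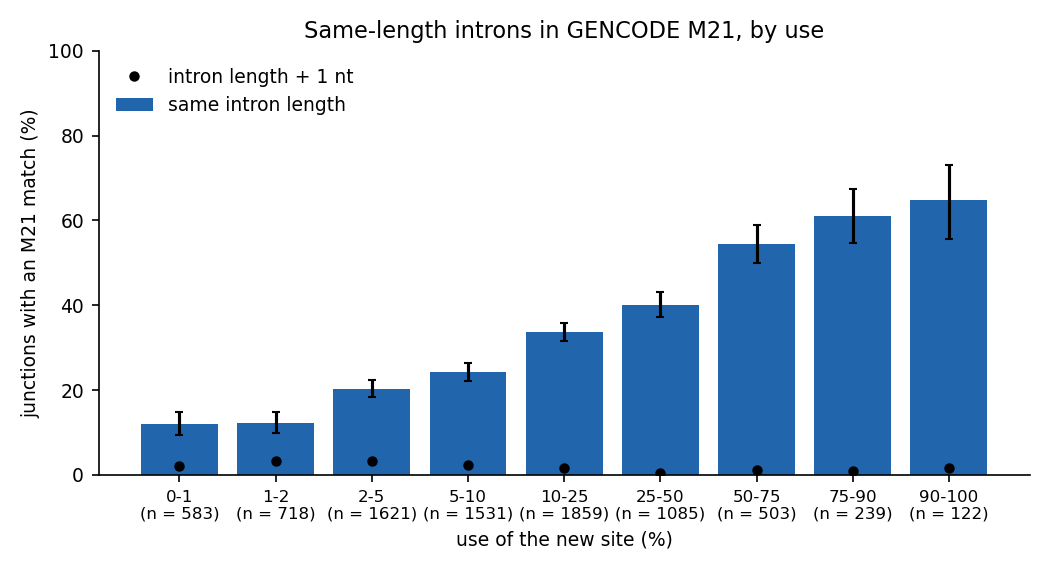
Percentage of new junctions with an intron of the same length in the same gene of GENCODE M21 (bars, with 95% Clopper-Pearson intervals) and with an intron 1 nt longer (points), by the use of the new site (x axis, with the number of junctions in each class). The bars run from 12.01% in the lowest class to 64.8% in the highest, and the points stay under 4%.

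The new junctions lay in 4337 host genes, of which 4221 had a symbol. There was 1 new junction in 2358 genes, and 284 genes had 5 or more. Host genes had a median of 38.4 and 37.05 TPM in the libraries labelled replicates 1 and 2, against 12.9 and 12.8 TPM for genes with an annotated junction past the same limits but no new one. A new junction was found in 52.0% of the genes in the highest of 4 equal classes of expression and in 7.90% of those in the lowest. The limit of 10 reads in each replicate favours well expressed genes, so these levels and shares partly follow from the selection. Most junctions were found in ENSMUSG00000091793 (29), a gene on chromosome 12 without a symbol in the tables used here, Gm38393 (28), ENSMUSG00000079733 (24), Tmem181a (20), Carmil3 (17) and Adgrl2 (17). The strongest new donor of ENSMUSG00000091793, at position 110895041 of mm9 chromosome 12, lay 9 nt inside an exon and had 3374 and 5775 reads, against 13282 and 21102. Carmil3 had a median use of 2.08% over its 17 junctions (0.37 to 67.1%), and the 3-nt acceptor above was the highest of them. The lists of neural and RNA genes below were chosen with earlier results known and are described by counts only. At least 1 new junction was found in 30 of 40 RNA-binding and splicing regulators (103 junctions), 21 of 37 SR protein and hnRNP genes (74), 37 of 50 cytoskeletal genes (94), 30 of 44 synaptic genes (83), 27 of 45 channel and receptor genes (82), 28 of 52 guidance and adhesion genes (96) 27 of 47 chromatin genes (78) and 14 of 21 imprinted and noncoding RNA genes (33), against 30.6% of all 13997 genes with an annotated junction past the limits. The part of expression level in these counts was not tested. The median use was 13.7% in the synaptic list and 4.78% in the RNA-binding list. Of the RNA-binding genes, Celf4 also had a donor 30 nt inside an exon, with 900 and 1081 reads against 434 and 570. Of the SR protein genes, Srsf7 used the donor 9 nt inside its exon at 39.1% and 35.9%, and Srrm2 had a new acceptor at 42.6% and 36.6%. Map6, which stabilizes microtubules, had 248 and 468 reads at a new acceptor, against 1 and 8. Chd3, a chromatin remodeler, used a donor 46 nt beyond the annotated one at 10.1% and 10.9%.

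Some junctions had nearly the same counts as their annotated competitor or spanned very long distances. Whether near-identical copies of a sequence share reads there was not tested. In Tusc3, a subunit of oligosaccharyltransferase, a 91-nt exon had 1832 and 2560 upstream reads, against 1833 and 2561 for the annotated junction from the same donor, which gives a use of 49.96% and 49.98%. Downstream the counts were 1187 and 1691 in both. Of the 1061 new junctions with at least 200 reads, 22 had counts within 2% of the annotated competitor in both replicates, among them junctions of Tusc3, Usf2, Usp9x, Phf10 and Tmem181a. The new junctions of Tmem181a and ENSMUSG00000079733 with the most reads spanned 338578 to 378807 nt and had uses of 45.2 to 49.7%. Of all new junctions 370 (4.33%) spanned more than 100000 nt, against 10.3% of unannotated junctions that join 2 annotated sites, 7.21% of those with both ends new and 0.64% of annotated junctions past the same limits. The longest spanned 1372714 nt in ENSMUSG00000079369, with 11 and 12 reads, followed by 1030228 and 1028295 nt in Ccl27a and 864939 nt in ENSMUSG00000079372. Values for these genes are uncertain.

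A few junctions differed strongly between replicates. The new acceptor of Hnrnpa3 had 59 and 70 reads, against 12 and 129 for the annotated one, a use of 79.7% and 35.2%. Psenen, a subunit of gamma-secretase, had 56 and 93 reads at a new donor, against 10 and 111, and the ribosomal protein gene Rps12 196 and 260, against 64 and 376. In these 3 genes the annotated junction, not the new one, had the larger change in reads. Mpc1, a mitochondrial pyruvate carrier subunit, went the other way, with 23 and 210 reads at a new acceptor of flag C=0, against 17 and 44 for the strongest annotated junction of its donor. Meg3, an imprinted noncoding RNA, had 102 and 1398 reads at a new donor and 352 and 1662 at a new acceptor of the same exon, with 11585 and 16301 reads for the skipping junction. The cause of these differences was not tested.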

How the data were processed

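Splice junctions, exons and contigs were deposited by the authors in mm9. The deposited junction file gives read counts of 2 replicates inside a text name (unit: other), their summed count and an irreproducibility score. The deposited contig file gives a signal level, whose normalization none of these sources states, and the deposited gene tables give TPM per library on mm10. Aligner and junction caller were not given in the sources used here. Junction ends were turned into donors and acceptors by strand, and use, distance, exon pairs and place were computed as defined above with Python 3.11.15, pandas 2.3.3 and scipy 1.17.1. Host genes are the Ensembl release 65 genes with an exon ending at the known site. Intervals are Clopper-Pearson at 95% and cover counting error only. Members and gene lists were chosen with earlier results of these data known. Named are, per kind, the 6 junctions with most reads and the 6 with highest use (50 reads at the known end), the leading exon pairs (with up to 8 of 3 to 27 nt), genes, list members, 3-nt acceptors, 4-nt donors, replicate differences and longest junctions, and others where said. The steps were tested on simulated junctions. Sequences carry 15 flanking bases, and no genome of the mm9 build was used. Some named items are not reported here.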

Additional observations from a re-analysis of the deposited data

How the results depend on the processing

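The number of junctions was 4540 with at least 20 reads in each replicate and 15475 with at least 5, and 395 and 1595 unannotated exons were then found. Median use was 14.4% and 5.16% under these limits, the share of near acceptor distances divisible by 3 was 52.3% and 41.3%, and the share of new sites in introns 51.45% and 53.5%. With 1 replicate left out there were 9547 to 13378 junctions, a median use of 6.29 to 8.32%, 42.25 to 44.3% of distances divisible by 3, 52.8 to 53.4% in introns and 891 to 1331 exons. Median use was 9.64% with annotated junctions and the new one alone in the denominator. Distances of at most 30 nt were divisible by 3 in 51.0%. With Ensembl exon ends as annotated sites 54.0% lay in introns. Same-length introns within 1 nt were found for 32.1%. Without introns over 100000 nt, which like C=1 alone was added after seeing the data, use was 8.55% and 54.6% lay in introns. The other alternatives, score limits and C=1 alone included, moved counts by less than 1.5 times and the median use by less than the SD between replicates. They moved the shares of distances and places by less than the SD of the 2 values with 1 replicate left out. Those values come from larger sets of junctions, and the main share of distances, 45.6%, lay above both of its values. Same-length introns that also share the known end were found for 28.3%. With C=1 alone, 46.5% of near acceptor and 32.8% of near donor distances were divisible by 3. Other contrasts between acceptors and donors, between distances divisible by 3 and others, and between classes of use were not recomputed under the alternatives. No paired analysis was possible because there is a single group. Depth limits the set to well read genes, and a junction not listed may still be used.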
